A study of Homo sapiens with 4 samples.

Results

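The comparison concerns trimethylated lysine 4 of histone H3 (H3K4me3) at human promoters before and after forced expression of a histone demethylase. The cells were JMJD3c-hESCs, stable clones made from the human embryonic stem cell (hESC) line SEES-3. They carry a doxycycline-dependent activator (rtTA) and a piggyBac transgene that encodes JMJD3c, the catalytic domain of the H3K27 demethylase JMJD3, with a hemagglutinin tag and a nuclear localization signal. Cells without doxycycline (−Dox) were compared with cells given 1 µg/ml doxycycline (+Dox), both collected on day 3 in feeder-free culture, and both groups carried the transgene. An antibody against H3K4me3 was used for chromatin immunoprecipitation sequencing (ChIP-seq), with 1 library in each group, and a matching pair of libraries for trimethylated lysine 27 (H3K27me3) was made. There is no replicate check for any difference given here, and doxycycline itself cannot be told apart from JMJD3c in these libraries. Each value is a signal, namely sequencing coverage scaled to the size of the library and summed over 3 kb on each side of a transcription start.

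The H3K4me3 values of both libraries were joined by gene and transcript over all 20242 promoters. A ratio of +Dox to −Dox was read only where the mean of both values was 20 or more, which left 12840 promoters (63.4%). A signal of 20 corresponds to about 20.7 reads in the −Dox library and 15.8 reads in the +Dox library. At the limit, NKX2-2 was just inside with values of 21.4 in −Dox and 18.6 in +Dox cells, and TNFRSF13C was just outside with 14.2 and 25.7. With 1 library a side, a promoter is said here to have gained (or risen) or lost (or fallen) H3K4me3 when its ratio was past 1.5-fold. Ratios of single promoters are given with a 95% counting interval. The interval covers the counting of reads only. Copies of 1 molecule were not marked by molecular identifiers, so reads may repeat a molecule, and the interval compares libraries rather than conditions.

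H3K4me3 is placed by SET1 and MLL methyltransferase complexes around the start sites of active genes, and also at most promoters that are rich in CG dinucleotides. H3K27me3 is placed by Polycomb repressive complex 2 (PRC2) and accompanies repression. In pluripotent cells many promoters of developmental regulators carry both marks, a state called bivalent, in which the gene is silent or nearly so. JMJD3 removes methyl groups from lysine 27.

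Promoters on which the results turn are shown by the 250 bases that precede their start, read from GRCh37, 5′ to 3′ on the strand of the gene, with every CG dinucleotide in capitals. SIX6 (chr14:60975614-60975863, + strand) and SHISA2 (chr13:26626155-26626404, − strand) stand for promoters where H3K4me3 rose and H3K27me3 fell. ULBP1 (chr6:150284829-150285078, + strand) stands for promoters where H3K4me3 fell and H3K27me3, relative to the library, did not. ZFP36L2 (chr2:43453746-43453995, − strand) and SPIB (chr19:50921945-50922194, + strand) lost H3K4me3 with little H3K27me3 in either library. No annotated exon lies in any of these stretches.
SIX6: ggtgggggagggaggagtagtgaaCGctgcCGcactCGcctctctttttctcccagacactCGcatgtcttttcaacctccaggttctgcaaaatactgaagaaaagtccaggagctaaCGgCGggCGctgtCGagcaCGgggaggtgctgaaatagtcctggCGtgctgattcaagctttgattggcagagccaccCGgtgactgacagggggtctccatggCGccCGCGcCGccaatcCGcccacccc
SHISA2: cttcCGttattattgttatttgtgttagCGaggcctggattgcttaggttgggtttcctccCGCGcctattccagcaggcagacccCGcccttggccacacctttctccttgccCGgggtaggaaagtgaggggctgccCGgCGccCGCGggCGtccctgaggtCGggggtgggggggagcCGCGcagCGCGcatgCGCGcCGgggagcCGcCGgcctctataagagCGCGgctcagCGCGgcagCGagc
ULBP1: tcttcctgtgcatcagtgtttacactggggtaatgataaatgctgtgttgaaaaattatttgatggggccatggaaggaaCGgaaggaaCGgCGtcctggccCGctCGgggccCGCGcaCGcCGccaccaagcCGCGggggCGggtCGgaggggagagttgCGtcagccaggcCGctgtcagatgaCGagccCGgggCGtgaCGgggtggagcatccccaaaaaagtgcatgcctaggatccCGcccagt
ZFP36L2: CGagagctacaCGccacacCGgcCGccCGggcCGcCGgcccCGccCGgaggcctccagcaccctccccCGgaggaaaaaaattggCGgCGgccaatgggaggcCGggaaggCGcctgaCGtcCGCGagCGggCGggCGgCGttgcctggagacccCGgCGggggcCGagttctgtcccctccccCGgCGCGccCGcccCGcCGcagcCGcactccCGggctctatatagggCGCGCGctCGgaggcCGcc
SPIB: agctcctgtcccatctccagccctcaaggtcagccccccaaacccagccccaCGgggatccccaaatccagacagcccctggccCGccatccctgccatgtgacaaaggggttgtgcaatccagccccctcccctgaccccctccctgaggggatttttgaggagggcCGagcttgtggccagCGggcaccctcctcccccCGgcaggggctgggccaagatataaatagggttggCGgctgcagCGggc

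The sequences differ most in their CG content. ZFP36L2 has 37 CG dinucleotides in this stretch, SHISA2 26, ULBP1 20, SIX6 16 and SPIB 7. The median was 22 over the read promoters with a known position, 19 over those that gained and 21 over those that lost H3K4me3. The GC box GGGCGG, searched on both strands, occurs 5 times in ZFP36L2, 2 times in ULBP1, 1 time in SIX6 and in SHISA2, and is not in the SPIB stretch. It was found at 70.4% of read promoters, 62.1% of those that gained and 69.7% of those that lost. CCAAT was found on either strand at 33.5%, 31.6% and 28.7%, and TATAAA at 4.91%, 4.35% and 7.17%, with 1 TATAAA match in SPIB. A match is a description of these letters and not a bound site.

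H3K4me3 was largely kept. Over the read promoters the signal summed to 875780 without and 851252 with doxycycline, and the Spearman correlation of the levels across the 12840 promoters was 0.906. The median log2 ratio was −0.04 (95% interval −0.05 to −0.03), and 92.5% of the promoters lay within 1.5-fold. In all 267 promoters (2.08%) were more than 1.5-fold higher and 695 (5.41%) more than 1.5-fold lower in +Dox cells. Past 2-fold there were 20 higher (0.156%) and 95 lower (0.74%). The counting interval lay above 1 at 241 promoters (1.88%) and below 1 at 527 (4.1%). More promoters thus lost than gained the mark by each of these 3 counts. The balance depends on how the libraries are scaled, since scaling over promoters with a mean below 10 gave 90 higher and 1390 lower, and scaling to a median ratio of 1 gave 340 and 570.

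**Figure D1:**
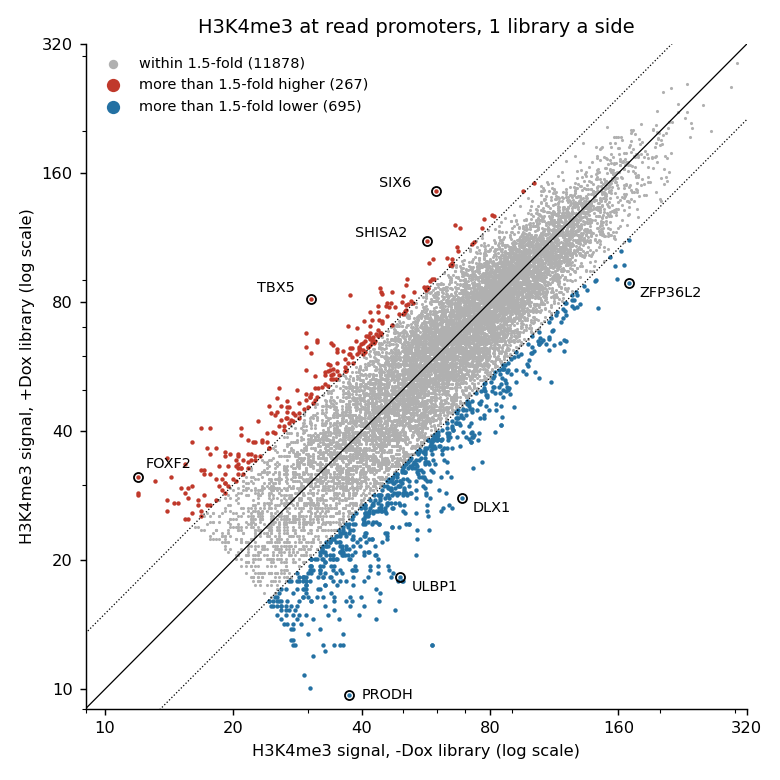
Each point is 1 of the 12840 read promoters, with the H3K4me3 signal in −Dox cells on the horizontal and in +Dox cells on the vertical axis, both on log scales. The solid line marks equal values and the dotted lines 1.5-fold, and the 267 gained (red) and 695 lost (blue) promoters lie beyond them, with 8 promoters named.

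The spread of the ratio followed the number of reads. The SD of the log2 ratio was 0.33 over the read promoters, and the counting of reads alone would give 0.30. At mean signals of 20 to 30 the SD was 0.49 against 0.44 from counting, and 17.5% of promoters lost and 6.35% gained H3K4me3. At mean signals of 120 and over the SD was 0.21 against 0.18, and 0.856% lost and 0.244% gained. Ratios past 1.5-fold were therefore more frequent at weakly marked promoters, and counting gave most of the spread in every range. At mean signals of 40 and over there were still 145 of the 267 gained and 314 of the 695 lost promoters. Of the 267 gained promoters 148 had an interval that excluded 1, as did 384 of the 695 lost ones and 236 of the 11878 others. The calls and the intervals rest on the same reads, so these counts are no separate evidence for the calls. Over 12840 promoters, counting alone also makes some 95% intervals exclude 1.

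**Figure D2:**
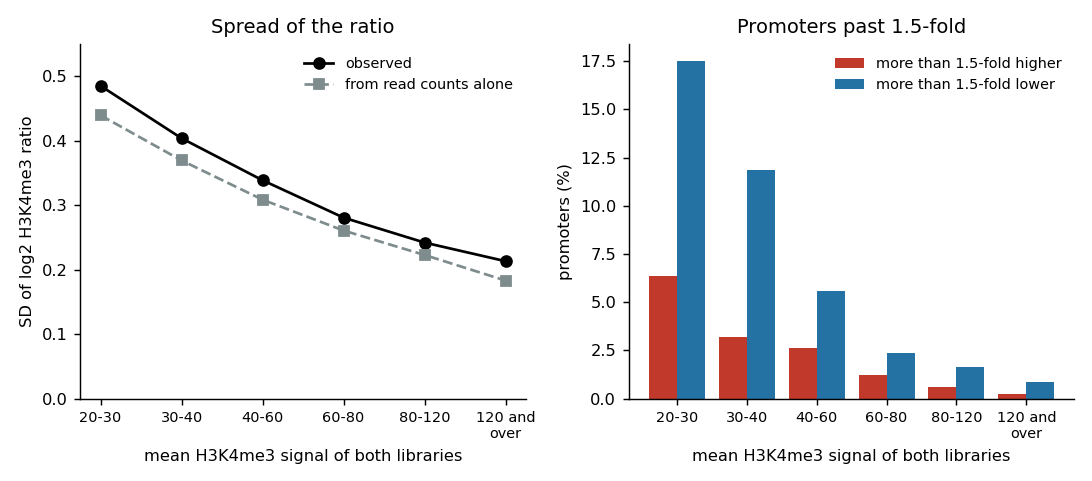
The left plot gives the SD of the log2 H3K4me3 ratio in 6 ranges of the mean signal as observed (black) and as computed from read counts alone (grey), and the right plot the percentage of promoters past 1.5-fold in each range. The observed SD runs from 0.49 to 0.21 and stays slightly above the counting SD in every range.

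The depth and the identity of the libraries set limits on what follows. All values in each library were whole multiples of a fixed step, and the steps correspond to about 3509244 reads for H3K4me3 −Dox and 2682085 reads for H3K4me3 +Dox. The step of H3K4me3 +Dox, 0.373, was the same as that of H3K27me3 +Dox, whereas the −Dox libraries had steps of their own, and the part this plays in the scaling was not tested. The markers of pluripotent stem cells carried high H3K4me3, with 11 of 12 read and a summed signal of 1488 in −Dox and 1363 in +Dox cells. The exception, POU5F1, is represented by a start 10049 bp from the canonical one. None of the 9 blood and 6 skin marker promoters was read, 1 of 8 liver, 1 of 6 muscle and 3 of 9 fibroblast markers were read, and no marker of any of these lists passed 1.5-fold.

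The promoters that gained H3K4me3 most firmly were those of developmental transcription factors. SIX6, a homeobox factor of eye and pituitary development (ENSG00000184302, chromosome 14, window 60972864 to 60978864), had an H3K4me3 signal of 59.8 in the −Dox library and 145 in the +Dox library. This is a ratio of 2.43 (1.77 to 3.36) from about 62 and 115 reads, and the largest rise of the signal at any read promoter. H3K27me3 at SIX6 fell from 176 to 36.2, a ratio of 0.205 (0.133 to 0.310). SIX4, a related homeobox factor, had little H3K27me3 and did not pass 1.5-fold, with H3K4me3 signals of 184 and 151.

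TBX5, a T-box factor of heart and forelimb development (chromosome 12, window 114843247 to 114849247), rose from 30.5 to 81.3, the highest ratio of all read promoters at 2.67 (1.69 to 4.13). Its H3K27me3 fell from 127 to 59.3. SHISA2, which restrains WNT and FGF receptors (chromosome 13, window 26623154 to 26629154), rose from 57.0 to 111, a ratio of 1.95 (1.39 to 2.76), and fell from 54.8 to 16.8 in H3K27me3. SIX6, TBX5 and SHISA2 thus exchanged marks in the same direction. FOXF2, a forkhead factor of gut and palate mesenchyme, differed from them. Its H3K4me3 rose from 12.0 to 31.3, a ratio of 2.62 (1.32 to 5.95) from about 12 and 25 reads, while its H3K27me3 of 186 and 162 had a ratio of 0.872 (0.684 to 1.12).

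The remaining gains among the 15 firmest came from genes of many kinds, most of them with little H3K27me3. GNA14, a G protein alpha subunit, rose from 44.2 to 86.5, and RAB33A, a small GTPase of vesicle transport, from 16.8 to 40.6. PMPCB, a subunit of the mitochondrial processing peptidase, rose from 29.6 to 63.0, and ARV1, a protein of sterol transport, from 44.5 to 84.6. The zinc finger gene ZNF235 rose from 29.6 to 67.9. SLC35F6 and CENPA share most of a window on chromosome 2 (26984152 to 26990152) and were measured with nearly the same reads, with ratios of 2.08 (1.34 to 3.41) and 2.06 (1.31 to 3.35). CENPA encodes the histone variant of centromeres, but the start used here is 21767 bp away from its canonical start. FKBP7 and PLEKHA3 also overlap and had ratios of 1.83 (1.32 to 2.52) and 1.76 (1.29 to 2.45). Of the 15 promoters 6 had an H3K27me3 signal of 20 or more in at least 1 library, and at 4 of these the H3K27me3 interval lay below 1.

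The firmest losses were mixed in H3K27me3. Of the 15 promoters 10 had an H3K27me3 signal of 20 or more in at least 1 library. The H3K27me3 ratio was below 1 at 5 of these, and its interval lay above 1 at 4 and below 1 at 2. DLX1, a homeobox factor of forebrain interneurons (ENSG00000144355, chromosome 2, window 172947235 to 172953235), had H3K4me3 signals of 68.7 (−Dox) and 28.0 (+Dox), with a ratio of 0.407 (0.239 to 0.662). Its H3K27me3 was 170 and 224, a ratio of 1.32 (1.04 to 1.66). ULBP1, a ligand of the natural killer cell receptor NKG2D (chromosome 6, window 150282079 to 150288079), fell from 49.3 to 18.3 with a ratio of 0.371 (0.184 to 0.659), with H3K27me3 at 120 and 185. Both promoters therefore had more H3K27me3 relative to the library in +Dox cells and less H3K4me3. C12orf68 showed the same pattern with H3K4me3 of 64.1 and 26.8 and H3K27me3 of 56.3 and 86.1.

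Losses without much H3K27me3 were found as well. PRODH, the proline dehydrogenase of mitochondria (chromosome 22, window 18920806 to 18926806), fell from 37.3 to 9.69 with a ratio of 0.260 (0.108 to 0.583), which rests on about 39 and 8 reads. MT1F, a metal-binding metallothionein, fell from 49.9 to 17.9, while SPIB, an ETS factor of B cells and dendritic cells, fell from 48.7 to 17.9 and ACSL1, which activates long-chain fatty acids, from 53.6 to 20.5, although ACSL1 had H3K27me3 signals of 28.5 and 25.4. ZFP36L2, an RNA-binding protein that shortens AU-rich transcripts, had the largest fall of the signal itself, from 169 to 88.7, a ratio of 0.525 (0.391 to 0.694) from about 175 and 70 reads. CBS, the first enzyme of transsulfuration, fell from 158 to 90.6 and TSC22D1, a transcription factor, from 164 to 97.7. EDNRA, the endothelin A receptor, and C14orf132 went against the H3K27me3 pattern of DLX1. EDNRA fell from 43.3 to 14.5 in H3K4me3 and from 36.9 to 18.3 in H3K27me3, and C14orf132 from 65.3 to 26.5 and from 30.8 to 11.2.

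**Figure D3:**
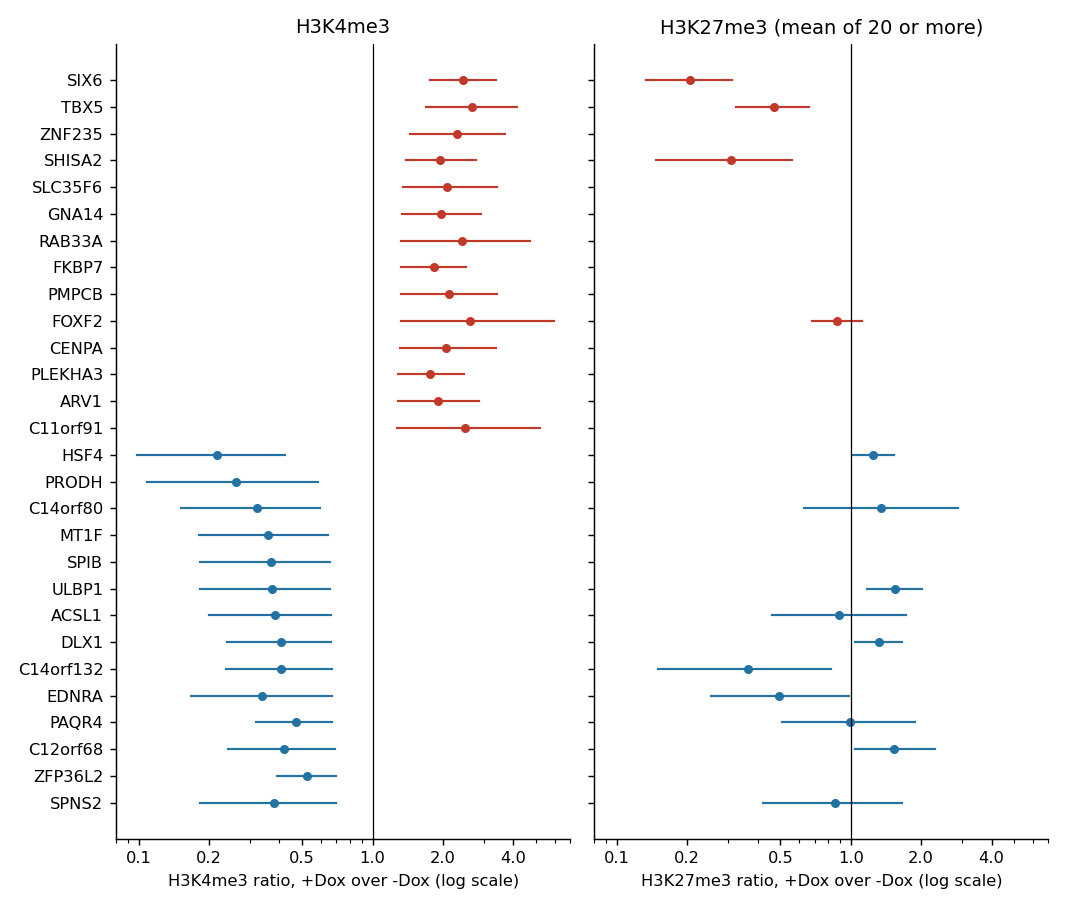
Promoters among the 15 with the firmest gain (red) and the 15 with the firmest loss (blue) of H3K4me3 are listed with their H3K4me3 ratio on the left and, where the mean H3K27me3 signal was 20 or more, their H3K27me3 ratio on the right, on log scales with 95% counting intervals. SIX6, TBX5 and SHISA2 lie left of 1 for H3K27me3, and HSF4, ULBP1, DLX1 and C12orf68 lie right of it.

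Lineage genes were past 1.5-fold at larger shares than all read promoters, in both directions. Over 13 lists of developmental regulators, 36 of 241 read promoters lost H3K4me3 (14.9%, against 5.41% of all read promoters) and 13 gained it (5.39%, against 2.08%). These promoters are also rich in H3K27me3, with 59.3% at a signal of 20 or more in −Dox cells, and their median H3K4me3 signal in −Dox cells was 54.1 beside 63.1 over all read promoters, with lists on both sides of the latter. The neuroectoderm list held the most losses, with 12 of 45 lower and 4 higher. EMX2, a homeobox factor of the cortex, fell from 40.5 to 15.7. NKX6-1 of motor neuron and beta cell progenitors fell from 49.3 to 26.8. POU4F1, POU4F3 and POU3F2, POU factors of sensory and cortical neurons, had ratios of 0.586 (0.344 to 0.983), 0.569 (0.292 to 1.09) and 0.598 (0.371 to 0.977), so that the interval of POU4F3 included 1. PAX5, DLX6 and EN2 also fell. The 12 lost genes were divided in H3K27me3, which was lower in +Dox cells at 6 of them. Over the 1514 read promoters with a mean H3K27me3 signal of 20 or more, the H3K27me3 ratio was 1 or more at 234. At EMX2, NKX6-1, POU4F3 and EN2 the H3K27me3 signal was between 167 and 267 in both libraries and no lower in +Dox cells. H3K27me3 was lower in +Dox cells at PAX5, NEUROG1, NEUROD1, DLX6, POU4F1 and POU3F2. It went from 93.2 to 53.3 at the neurogenic factor NEUROG1, from 187 to 146 at NEUROD1 and from 180 to 142 at DLX6. The falls were smaller at POU4F1, from 168 to 151, and at POU3F2, from 163 to 155. The interval of the H3K27me3 ratio included 1 at NEUROD1, DLX6, POU4F1 and POU3F2. PAX5, with the least H3K27me3 of the 12, had a ratio of 0.118 (0.0145 to 0.563).

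The 4 neuroectoderm genes that gained H3K4me3 all had a lower H3K27me3 signal in +Dox cells. A lower signal was the rule, since the ratio was 1 or more at 234 of 1514 promoters with H3K27me3. The count of 4 is therefore near the share over these promoters. Beside SIX6 and PAX7 they were EMX1, a cortical homeobox factor, which rose from 67.3 to 105, and OTX2, a factor of the anterior neural plate and of pluripotent cells, which rose from 40.7 to 61.1. OTX2 fell in H3K27me3 from 143 to 30.2 and EMX1 from 146 to 78.7. SOX14, a SOXB2 factor of interneurons, belongs to the same pattern, with a rise of H3K4me3 from 58.7 to 101, a ratio of 1.71 (1.21 to 2.44), and a fall of H3K27me3 from 129 to 52.9. It was the only gain among 15 read SOX genes. SOX8 was the only loss, from 74.9 to 38.0 with a ratio of 0.507 (0.319 to 0.776), and 11 of the 15 had a ratio below 1.

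Mesendoderm genes split evenly, with 3 of 29 higher and 3 lower. ISL1, a LIM factor of cardiac progenitors and motor neurons, rose from 20.8 to 39.1, MESP1 of early cardiac mesoderm from 16.8 to 25.4, and TCF15 of somites from 20.2 to 34.3. WNT3A, a ligand of the primitive streak, fell from 28.8 to 14.2, TBX20 of the heart from 33.9 to 18.3, and HAND1 of the heart and extraembryonic mesoderm from 36.8 to 22.7. Only the intervals of ISL1 (1.03 to 3.34), WNT3A (0.217 to 0.985) and TBX20 (0.260 to 0.998) among these 6 excluded 1. The difference between the mesendoderm and neuroectoderm lists was not tested.

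The shares over all read promoters, 5.41% lower and 2.08% higher, apply to each of the following lists. In the lists of transcription factor families, forkhead genes had 3 lower (8.57%) and 1 higher (2.86%) of 35. FOXB2, a neural forkhead factor, fell from 51.6 to 24.2 with H3K27me3 at 259 and 319. In the list of LIM, NKX, DLX, IRX, PAX and related homeobox genes 10 of 40 were lower and 4 higher. LHX6, a LIM factor of interneurons, fell from 36.2 to 12.7, and NKX2-3, a factor of gut and spleen mesenchyme, fell from 27.6 to 13.1 while its H3K27me3 went from 243 to 384. The basic helix-loop-helix factors had 7 of 37 lower and 2 higher. Only 5 HOX promoters were read, and 3 of them were lower. PAX7 of the muscle list and FLI1 of the blood list rose. In the muscle list 2 of 13 were higher and 0 lower, but 9 of 13 had a ratio below 1. In the blood list 1 of 10 was higher and 1 lower, and 8 of 10 had a ratio below 1. The lower one was FLT4, from 54.1 to 32.4, a ratio of 0.599 (0.366 to 0.984). FLI1, an ETS factor of blood and endothelium, went from 28.2 to 50.0 in H3K4me3 and from 192 to 95.1 in H3K27me3, at a start 7537 bp from the canonical one. None of the 22 read genes of the epithelial-mesenchymal transition passed 1.5-fold.

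Pluripotency genes were strongly marked, and 2 of 21 were lower (9.52%, against 5.41% of all read promoters) and 0 higher. The interval lay below 1 at 5 of 21, against 4.1% of all read promoters, and above 1 at 0. PRDM14 with a ratio of 0.776 (0.614 to 0.972) and LIN28A with 0.752 (0.569 to 0.995) were among the 5. KLF4 was one of the 2, at 98.6 in −Dox and 58.5 in +Dox cells, and UTF1 the other. The pluripotency markers NANOG and SOX2 had signals of 51.6 and 62.3, and of 157 and 152. The median log2 ratio of the list was −0.11 beside −0.04 over all read promoters.

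In the 12 signalling lists 35 of 362 read promoters were lower (9.67%, above the 5.41% of all read promoters) and 6 higher (1.66%, below the 2.08%). Their median H3K4me3 signal in −Dox cells was 64.7, beside 63.1 over all read promoters. An H3K27me3 signal of 20 or more in −Dox cells was found at 39.5% of them. In the WNT list 6 of 50 were lower and 1 higher, and 35 of 50 had a ratio below 1, as did 55.8% of all read promoters. The lower ones were NOTUM, an enzyme that inactivates WNT ligands, which fell from 53.9 to 23.5, the ligands WNT1, WNT3A, WNT4 and WNT6, and NKD1, a feedback inhibitor. The inhibitor DKK1 rose from 21.1 to 31.7, and its H3K27me3 fell from 59.3 to 18.3. Of the TGF-beta, BMP and NODAL genes 5 of 53 were lower and 2 higher. INHBB, the activin B subunit, fell from 41.3 to 18.3, the BMP antagonist GREM1 from 49.9 to 28.3 and BMP6 from 58.7 to 36.5. GDF5, a ligand of joint development, rose with a ratio of 1.59 (1.10 to 2.32), and CHRDL1, another BMP antagonist, went from 15.4 to 33.6. FGF11, FGF19 and SPRED3 were lower in the FGF list, and HES4, DLL4 and DTX1 in the Notch list. Hedgehog genes had 2 of 16 higher, SHH among them, and 0 lower. Both intervals included 1, and with 16 genes a count of 0 is near the share of 5.41% over all read promoters. Of the immediate early genes 4 of 28 were lower (14.3%, against 5.41% of all read promoters), namely KLF2, KLF4, EGR4 and JUNB.

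Genes of differentiated tissues resembled the signalling genes, with 45 of 559 lower (8.05%) and 10 higher (1.79%), against 5.41% and 2.08% of all read promoters. Their median H3K4me3 signal in −Dox cells was 50.7, beside 63.1 over all read promoters. An H3K27me3 signal of 20 or more in −Dox cells was found at 36.0% of them. Channel genes had 8 of 84 lower and 2 higher, and the synaptic list 6 of 47 lower and 0 higher. In the synaptic list VAMP1, a vesicle protein, fell from 60.7 to 29.1. Collagen genes had 4 of 30 lower, led by COL24A1 with 51.6 and 24.2. CYP27B1, which activates vitamin D, fell from 43.3 to 17.2 and the sodium-calcium exchanger SLC24A4 from 46.2 to 19.4. Glutamate receptor genes moved in both directions, as GRIK4 rose from 17.4 to 36.5 while GRIK3 fell from 77.5 to 43.6.

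Chromatin and transcription genes stayed close to the background or below it, with 16 of 551 lower (2.90%) and 11 higher. Among Polycomb genes EED, the PRC2 subunit that binds H3K27me3, rose from 67.0 to 107, a ratio of 1.60 (1.16 to 2.25). PHF1, a PRC2 partner, rose with a ratio of 1.80 (1.07 to 3.19), and CBX8, a chromodomain subunit of PRC1, fell from 34.5 to 15.3 with H3K27me3 at 235 and 295. The CBX8 start in the files is 4456 bp away from its canonical start. TET2, a dioxygenase that oxidizes 5-methylcytosine, rose from 33.9 to 64.1 while its H3K27me3 fell from 90.5 to 32.1. None of the 25 read genes of H3K4 methylation enzymes passed 1.5-fold, with ratios from 0.709 to 1.35. Of 436 zinc finger ZNF genes 13 were lower and 7 higher.

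Housekeeping genes were mostly stable, with 24 of 644 lower (3.73%) and 10 higher (1.55%). They were also more strongly marked, with a median −Dox H3K4me3 signal of 79.2 beside 63.1 over all read promoters. Only 3.88% had an H3K27me3 signal of 20 or more in −Dox cells. The part of signal level in this stability was not tested. None of 76 splicing factor genes passed 1.5-fold in either direction. Ribosomal protein genes had 5 of 79 lower, namely RPS7, RPS9, RPS10, RPL22 and RPL39L, a share of 6.33% beside 5.41% of all read promoters, and 58 of 79 had a ratio below 1 (against 55.8%). Cholesterol synthesis genes showed the opposite tendency, with 19 of 24 above 1 (against 44.2% of all read promoters) and a median log2 ratio of 0.21. SREBF1, the transcription factor of lipid synthesis, was the single member past 1.5-fold, with 63.3 and 101. Hypoxia genes had 21 of 27 below 1 (against 55.8% of all read promoters), and LDHA, PFKFB3 and EGLN3 fell. LDHA, a lactate dehydrogenase subunit, went from 98.0 to 56.7. In the cell growth lists 9 of 339 were lower (2.65%) and 10 higher (2.95%). Kinesin and centrosome genes had 6 of 94 higher (6.38%, against 2.08% of all read promoters) and 0 lower (against 5.41%). The higher ones included CEP250 with 49.9 and 82.8 and the CENPA promoter described above, which was measured with nearly the same reads as SLC35F6. The intervals of the others, CEP41, CENPC, KIF27 and CEP112, included 1. The median log2 ratio of this list was 0.02, with 49 of 94 above 1 and 45 below. Replication-dependent histone genes had 5 of 62 lower and 2 higher, which are uncertain because reads can be shared between near-identical copies.

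**Figure D4:**
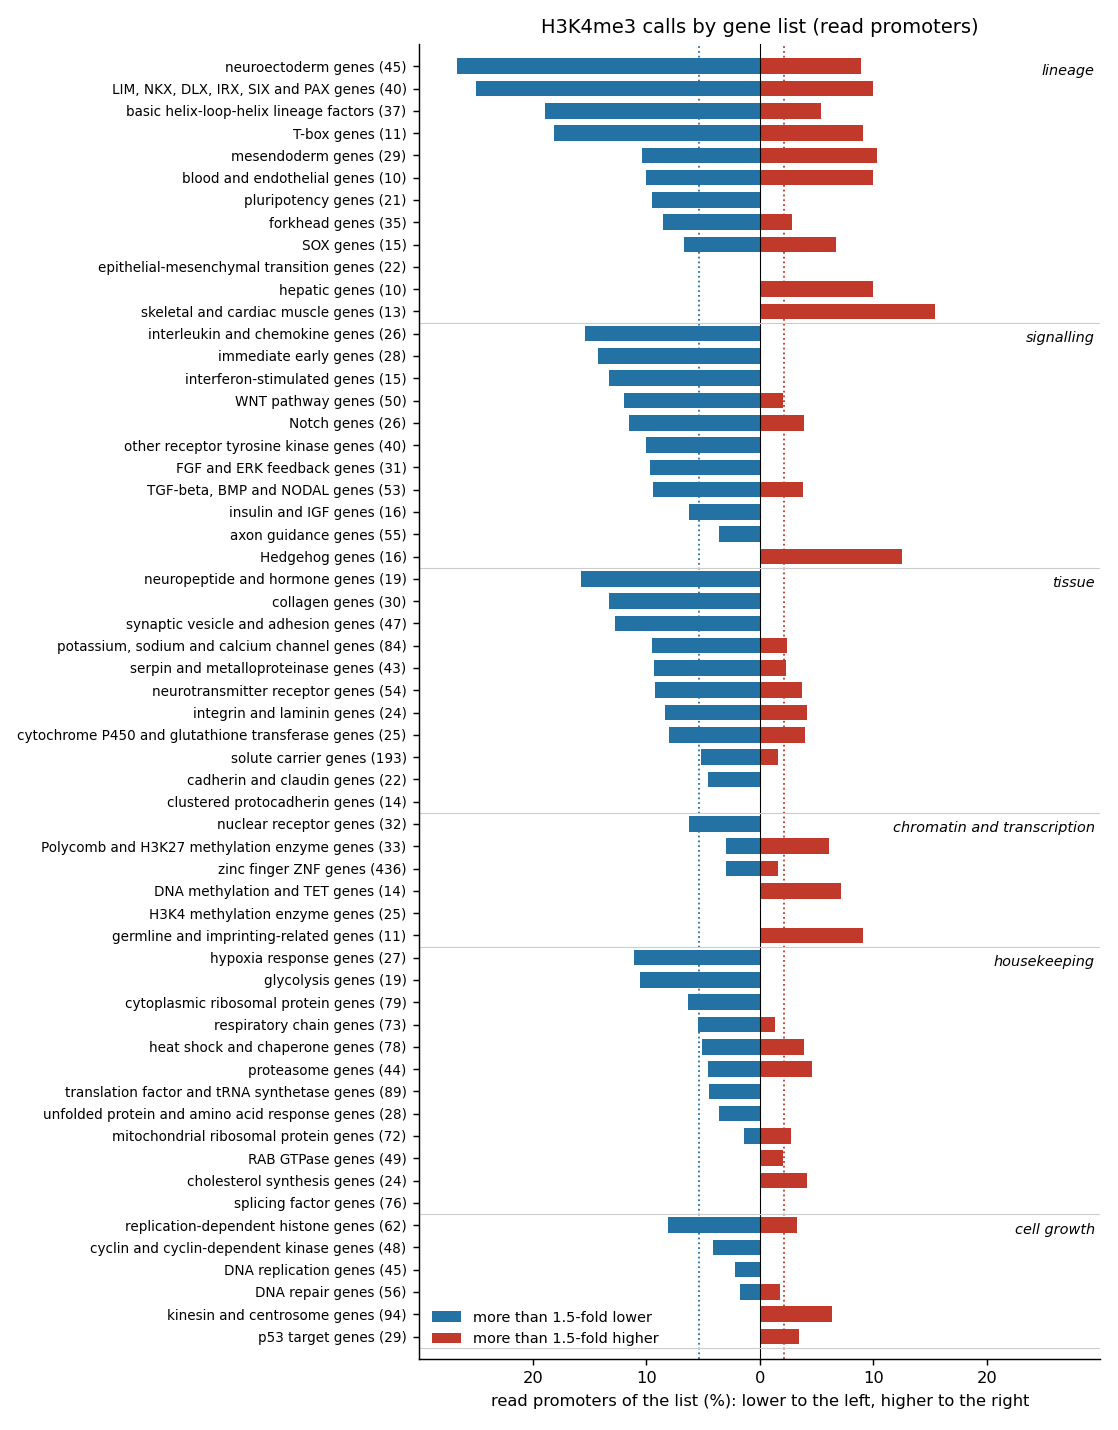
Bars give the percentage of read promoters of each gene list with at least 10 read members that were more than 1.5-fold lower (blue, to the left) or higher (red, to the right) in +Dox cells, with the number read in parentheses and lists ordered by theme. Dotted lines mark the shares over all read promoters, 5.41% and 2.08%, and the neuroectoderm list reaches farthest to the left with 12 of 45.

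The H3K4me3 ratio was lower at promoters with more H3K27me3. At the 9172 read promoters with an H3K27me3 signal below 10 in −Dox cells the median log2 H3K4me3 ratio was −0.02, and 3.19% lost H3K4me3. The median went to −0.06 at signals of 10 to 20, to −0.11 at 20 to 40, to −0.17 at 40 to 80 and to −0.26 at 80 and over. In this last group 104 of 415 promoters lost H3K4me3 (25.1%) and 15 gained it (3.61%). Of all lost promoters 42.7% had an H3K27me3 signal of at least 20 in −Dox cells, against 18.0% of the gained ones and 12.8% of the promoters within 1.5-fold. H3K4me3 levels moved with H3K27me3 too. The median mean H3K4me3 signal was 67.9 at the lowest and 39.9 at the highest H3K27me3 level, and weak promoters passed 1.5-fold more often.

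The change of H3K27me3 separated the promoters further. The H3K27me3 ratio was taken at the 1514 read promoters with a mean H3K27me3 signal of 20 or more. The values are scaled to the size of the library, and in the paper's immunoblots the total H3K27me3 fell over 3 days of doxycycline. A ratio of 1 or more is therefore relative to other loci and does not show that the amount of H3K27me3 was kept. Where H3K27me3 fell below 0.5 of its −Dox value, the median log2 H3K4me3 ratio was −0.04 (−0.07 to −0.003) over 495 promoters, with 27 gained and 47 lost. Between 0.5 and 0.66 it was −0.13 over 325 promoters, and between 0.66 and 1 it was −0.26 over 460 promoters. Where the H3K27me3 ratio was 1 or more, it was −0.45 (−0.52 to −0.38) over 234 promoters, of which 91 lost H3K4me3 (38.9%) and 1 gained it. Of the 41 gained promoters in this set 33 had an H3K27me3 ratio below 0.66, as did 820 of all 1514. Of the 270 lost promoters 91 had an H3K27me3 ratio of 1 or more, against 234 of all 1514. Most lost promoters thus had a lower H3K27me3 signal in +Dox cells too. Across the 1514 promoters the Pearson correlation of the log2 ratios was −0.37 and the Spearman correlation −0.36, given as a description. The H3K4me3 and H3K27me3 libraries are separate, so no read enters both ratios, but the points share the same 4 libraries and neighbouring promoters can overlap.

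The ordering was present at the 3 H3K27me3 levels examined. At a mean H3K27me3 signal of 20 to 40 the median log2 H3K4me3 ratio was −0.07 where H3K27me3 fell below 0.66 and −0.32 where its ratio was 1 or more. At mean signals of 80 and over these medians were −0.05 and −0.61. In that last set 58 of 112 promoters lost H3K4me3, against 4 of 66 where H3K27me3 fell. SIX6, TBX5, SOX14 and PAX7 are on the side where H3K27me3 fell, and DLX1, ULBP1, FOXB2, NKX2-3 and CBX8 on the other.

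**Figure D5:**
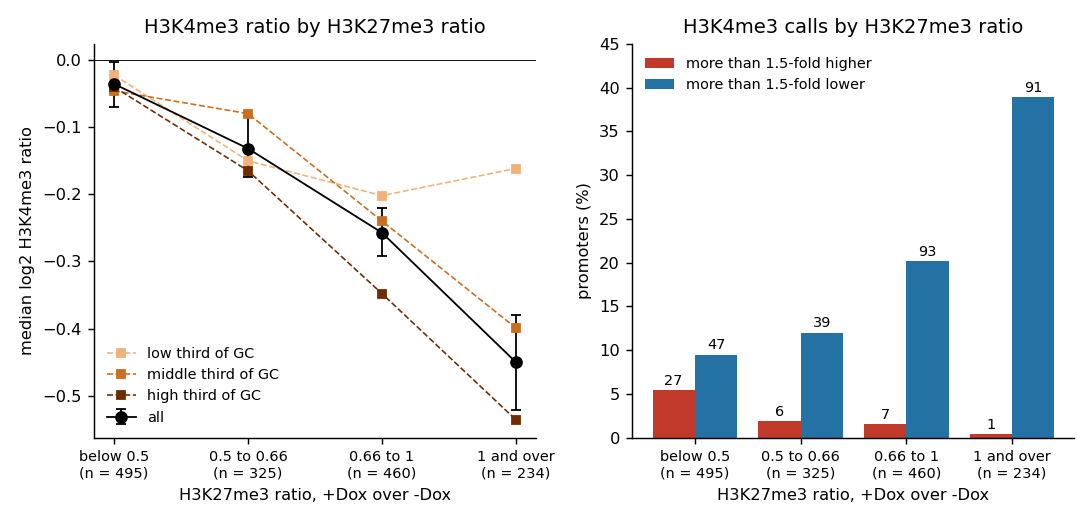
The left plot gives the median log2 H3K4me3 ratio of 1514 promoters in 4 ranges of the H3K27me3 ratio (black, with 95% intervals of the median) and within 3 groups of GC content (brown), and the right plot the percentage that gained (red) or lost (blue) H3K4me3, with their numbers above the bars. The median goes from −0.04 to −0.45 and the lost share from 47 of 495 to 91 of 234, while in the GC-poor group the last median, −0.16 over 23 promoters, is above the one before it.

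Base composition moved with the ratio as well. When the read promoters of known position were divided into 6 groups by the GC content of the window, the median log2 ratio of H3K4me3 was 0.02 in the GC-poorest and −0.12 in the GC-richest group. The share that lost H3K4me3 was 3.90% in the first and 10.9% in the last, and the share that gained it 3.44% and 1.32%. Median GC content was 53.4% for lost, 47.4% for gained and 49.4% for the other promoters. GC content also moved with the H3K27me3 ratio, with a Spearman correlation of 0.34 over 1378 promoters. The H3K27me3 relation was found within GC groups. In the GC-richest of 3 groups the median went from −0.04 to −0.54, and 61 of 134 promoters with an H3K27me3 ratio of 1 or more lost H3K4me3. In the GC-poorest group it went from −0.02 to −0.16, and 5 of 23 lost it. After subtraction of the median of each of the 6 GC groups, the medians over the 4 ranges of the H3K27me3 ratio were 0.02, −0.05, −0.20 and −0.35. What part GC content plays beyond this was not tested.

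Gained and lost promoters were mostly scattered over the genome. The median log2 ratio of single autosomes ranged from −0.08 on chromosome 16 to 0.03 on chromosome 21, and it was 0.02 on chromosome X. Of 253 gained promoters of known position 44 shared part of their window with another read promoter, and at 34 of them that promoter had gained H3K4me3 too, with reads in common. Beyond overlapping windows, the nearest read promoter within 100 kb was also gained in 3 of 166 cases (1.81%). For lost promoters the nearest one was also lost in 37 of 439 cases (8.43%, against 5.41% over all read promoters). The signal of 160 lost promoters went from 20 or more to below 20, and that of 52 gained promoters went the other way.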

How the data were processed

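The data are 4 libraries of H3K4me3 and H3K27me3 from −Dox and +Dox JMJD3c-hESCs, with 1 library in each group. The authors mapped MiSeq single-end reads with Bowtie2 to hg19, removed mitochondrial reads and computed coverage with ngs.plot, and the deposited signal is this coverage, scaled to the size of the library and summed over 3000 bp on each side of 1 transcript start per gene. The submitters' processing notes name CASAVA 1.4 and Bowtie2. No input library was used here, and whether the scaling to the density downstream of transcription ends that the methods describe was applied to these values is not stated. Values scaled in this way cannot show a change that all loci share.

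The ratio is the plain +Dox to −Dox ratio without a pseudocount. Reads were estimated from the fixed step of the values and the 3.39 data points that 1 read covers, and the 95% interval of a ratio was derived with the exact Clopper-Pearson method from the share of these reads found in +Dox cells. Intervals of medians came from order statistics over promoters. The intervals were tested on simulated reads drawn with the same counting error that they assume. Such reads hold no repeated molecules and no differences between cultures, so this checks the computation only. Positions were matched by transcript to GENCODE 44 on GRCh37 for 18244 promoters (90.1%). In 28 rows the symbol had been turned into a date. Python 3.11.15, numpy 2.4.6, pandas 2.3.3 and scipy 1.17.1 were used.

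The comparison and the 63 gene lists were chosen with earlier results of these data known. Named genes are the 15 gains and 15 losses with the interval bound farthest from 1, the 6 largest rises and falls of the signal, the highest and lowest member of each list if past 1.5-fold, members of the pluripotency, mesendoderm and neuroectoderm lists past 1.5-fold, and promoters at the limit of 20. Other members of small counts, SIX4, NANOG, SOX2 and the metallothionein genes were named after their values were seen. For HOX genes no single values are given, and a few genes that the rule names are not reported here. With 1 library a side no test across conditions was made and no p-value is given.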

Additional observations from a re-analysis of the deposited data

How the results depend on the processing

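No paired analysis was possible because only 1 library was made per group, which also leaves no replicate to omit. The number of promoters past a fold depended on the minimum mean and on the scaling, and the cause was not tested. Scaling over promoters with a mean below 10 multiplied the +Dox values by 0.901 and gave 90 promoters past 1.5-fold higher and 1390 lower, 9 and 178 past 2-fold, and a median log2 ratio of −0.19. Scaling to the same total and to a median ratio of 1 gave medians of −0.0061 and 0, and adjustment for GC content, which was added after the data were seen, gave 0. A pseudocount of 5 left 169 promoters past 1.5-fold higher, and 9 higher and 46 lower past 2-fold. A minimum mean of 10 gave 402 past 1.5-fold higher, and 62 higher and 168 lower past 2-fold. A minimum mean of 40 gave 145 and 314 past 1.5-fold, 7 and 20 past 2-fold, and a median of −0.030. Without a minimum these were 2282 and 2179, 1199 and 878, and −0.022, so that higher ratios then outnumbered lower ones. The median at promoters with an H3K27me3 signal of 80 and over in −Dox cells minus that at signals below 10 was −0.24, and became −0.15 with a minimum mean of 40 and −0.38 with the H3K27me3 level from the +Dox library. The corresponding difference between H3K27me3 ratios of 1 and over and below 0.5, −0.41, lay between −0.36 and −0.47 under its alternatives. Of the 492 recomputed ratios of named genes 492 stayed inside their counting intervals. They came from the scalings, with factors from 0.901 to 1.03, and from the pseudocount of 5. Such changes are small beside the intervals, so this count could hardly have come out otherwise. Of 457 recomputed list medians 444 stayed on the same side of the median over all read promoters. A common scaling moves a list and all read promoters together, so for the scalings this was largely fixed in advance.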

Other observations

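The metallothionein genes were looked at together because MT1F was among the firmest losses, so they were chosen after their values were seen. These small proteins bind zinc and copper, and 11 of their promoters lie within 117 kb on chromosome 16. Of the 11, 8 were read. Of these, 8 had a ratio below 1 (against 55.8% of all read promoters) and 4 lost H3K4me3 (against 5.41%). Their median log2 ratio was −0.63, beside −0.04 over all read promoters. MT1F, for which the group was chosen, is included in these values and in the sum below. MT1X had H3K4me3 signals of 72.1 (−Dox) and 39.5 (+Dox) with a ratio of 0.548 (0.344 to 0.832), and it was the only member beside MT1F with an interval that excluded 1. MT1M had signals of 27.4 and 13.8, MT1G 29.1 and 18.3, MT1E 26.8 and 17.9, and MT2A 35.3 and 31.3. Over the 11 promoters the summed signal was 330 in −Dox and 207 in +Dox cells. H3K27me3 was above 20 in both libraries at MT1E, MT1M, MT1A, MT1G and MT1H and below it at MT1F, MT1X and MT2A. The genes are near-identical copies in part, and reads can be shared between them, so single values are uncertain.

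ULBP2 and DLX2, the genes nearest to ULBP1 and DLX1 in the files, had mean H3K4me3 signals of 18.0 and 17.2 and were not read. ULBP2 had H3K4me3 signals of 25.6 and 10.4 and H3K27me3 signals of 155 and 176. DLX2, which lies 17393 bp from DLX1, had H3K4me3 signals of 22.5 and 11.9 and H3K27me3 signals of 155 and 205. Other genes of the ULBP1 cluster were read and stayed within 1.5-fold, with H3K4me3 ratios of 0.708 (0.374 to 1.24) at RAET1G and 0.911 (0.544 to 1.52) at ULBP3. These neighbours were chosen after their values were seen.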
